A study of Mus musculus with 8 samples.

Results

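The common gamma chain, encoded by *Il2rg*, is a receptor subunit used by the receptors for IL-2, IL-4, IL-7, IL-9, IL-15 and IL-21. The 8 genes described here are *Il2rg* and the 7 chains that pair with it, *Il2ra*, *Il2rb*, *Il7r*, *Il15ra*, *Il4ra*, *Il21r* and *Il9r*. They were taken by gene symbol from a table of 22520 rows, in which each of the 8 symbols occurs once.

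The data are FPKM values (fragments per kilobase of transcript, scaled to the fragments of the library) from bulk RNA-seq of mouse splenic CD8+ T cells in culture. In 4 libraries the cells received DADA at 40 µM from day 3 until harvest on day 6. DADA is diisopropylamine dichloroacetate, an inhibitor of pyruvate dehydrogenase kinase. In the other 4 libraries they received the same volume of its solvent DMSO over the same days. According to the study's methods, the cultures were under persistent stimulation with antibodies to CD3 and CD28 in medium with recombinant IL-2, so that IL-2, a ligand of these receptors, was supplied to both groups. The genotype field of the labels reads control for the DMSO samples and model for the DADA samples, names no allele, and gives neither strain nor age. The paper describes the CD8+ T cells of this culture as taken from spleens of wild-type mice. Its methods list male C57BL/6J mice among others, without a link to these libraries. The series describes the libraries as 4 biological replicates a group, without stating whether these were separate mice or separate wells. Stranded counting is not described.

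Each cytokine of this family binds its own receptor chain, and signalling starts when the receptor's signalling chain is brought together with the common gamma chain. JAK3 sits on the common gamma chain. JAK1 sits on the signalling chain that pairs with it, which for IL-2 and IL-15 is the shared IL-2 receptor beta chain. These kinases phosphorylate STAT proteins, chiefly STAT5 for IL-2, IL-7, IL-9 and IL-15, STAT6 for IL-4, and STAT3 for IL-21. In CD8+ T cells the alpha chain of the IL-2 receptor marks recent or ongoing activation, whereas the IL-7 receptor is typical of naive and memory cells and is usually low on activated effectors.

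The estimated depth was 13420000 to 16180000 fragments with DMSO and 14630000 to 18370000 with DADA. These are rough estimates, which take the most common low FPKM values of genes with a single transcript as a single fragment. At these depths most of the low values did not lie near whole fragments. *Cd3d*, *Cd3e*, *Cd3g*, *Cd8a* and *Cd8b1* together reached 674 to 680 FPKM with DMSO, and with DADA 776 to 805. The B cell gene *Pax5*, the macrophage genes *Csf1r* and *Adgre1* and the mast cell and basophil genes *Ms4a2* and *Mcpt8* were at 0 in all 8 libraries. In the same lists *Cd79b* was at 2.18 to 3.47 FPKM over all libraries, *Cd68* went from a mean of 3.66 to 5.32 FPKM and *Kit* from 0.542 to 3.98 FPKM. *Cd4* did not pass 0.411 FPKM and *Foxp3* did not pass 0.268 FPKM in any library, the latter being from 0.0426 to 0.103 with DMSO and from 0.187 to 0.268 with DADA. In bulk samples such as these, fewer cells of a type and less RNA per cell cannot be told apart.

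Of the 8 receptor genes, 7 passed the filter of at least 1 FPKM in at least 4 libraries, and each of the 7 was above it in all 8. With DADA, 5 rose (*Il2ra*, *Il2rb*, *Il7r*, *Il4ra* and *Il21r*) and 2 fell (*Il2rg* and *Il15ra*), at an adjusted p under 0.05 by limma on log2(FPKM + 1). Changes were widespread in this comparison: 66.2% of the 10666 genes tested were called, 30.9% higher and 35.3% lower. The median log2 fold change was 0.33 over the 7 receptor genes and -0.02 over all genes tested. The 4 values of one group lay apart from those of the other in all 8 receptor genes, which was so for 60.6% of all genes tested. The exact two-sided permutation test gave p = 0.0286 for each of the 8 single genes, the smallest p that 4 libraries against 4 allow. The receptor genes therefore differed among themselves mainly in size and direction, and these are given gene by gene.

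**Figure D1:**
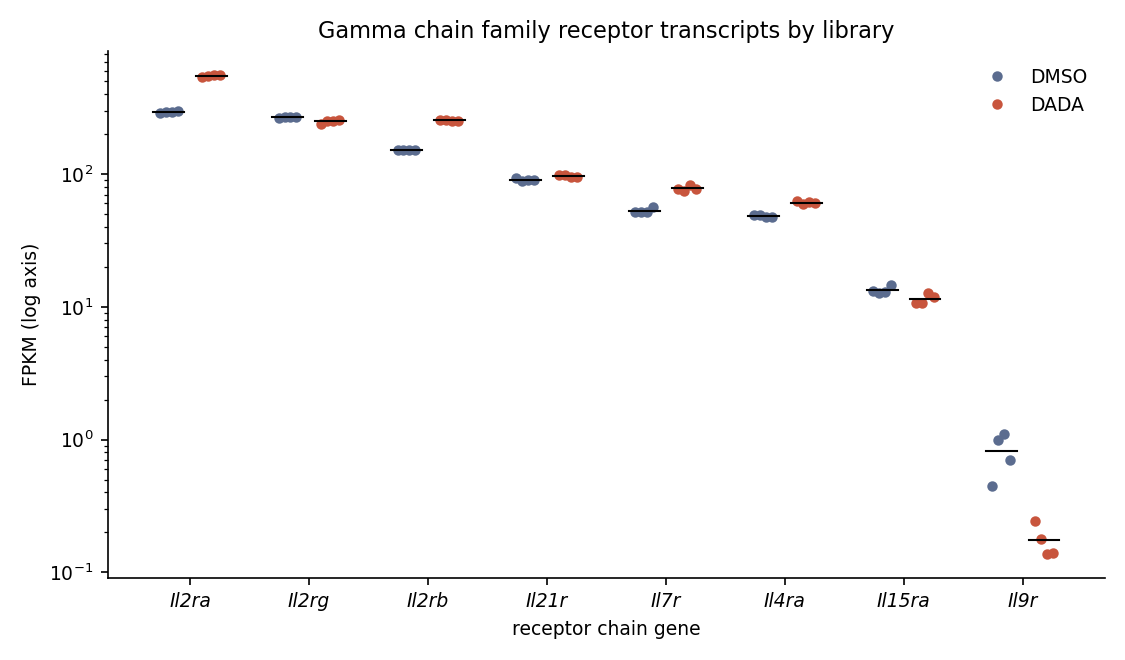
FPKM on a log axis of the 8 receptor genes in each library, with DMSO in blue and DADA in red, 4 libraries each, and a horizontal line at each group mean. *Il2ra* stood highest in both groups (means 293 and 549 FPKM) and *Il9r* lowest (0.814 and 0.174 FPKM), and the red and blue points do not overlap within any gene.

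The largest rise was that of *Il2ra*, which encodes the IL-2 receptor alpha chain (CD25), the chain that raises the affinity of the receptor for IL-2 and takes no part in signalling itself. Its 4 DMSO libraries held 288, 293, 295 and 296 FPKM, and the 4 DADA libraries 541, 545, 559 and 551 FPKM. The lowest DADA library stood far above the highest DMSO library, and the values within a group lay close together. The mean went from 293 ± 3.19 to 549 ± 7.82 FPKM (SD, n = 4), a ratio of 1.87 and a log2 fold change of 0.90 (SE 0.0193, 95% interval 0.86 to 0.95, limma adjusted p = 1.35e-10). Its size exceeded that of 95.1% of the genes tested. *Il2ra* was already among the abundant transcripts with DMSO, at rank 183 of the table, and stood at rank 110 with DADA. In GENCODE M21 the experimental (TEC) gene model *Gm37881* overlaps it on the same strand and has no row in the table.

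The 250 bases before the RefSeq start of *Il2ra*, at chr2:11642542-11642791 on the plus strand of GRCm38.p6, are shown because this gene had the largest rise of the 7 tested. The capitals mark a match to the ETS core GGAAGT, which lies on the other strand and starts 35 bases before the gene's start:
Il2ra: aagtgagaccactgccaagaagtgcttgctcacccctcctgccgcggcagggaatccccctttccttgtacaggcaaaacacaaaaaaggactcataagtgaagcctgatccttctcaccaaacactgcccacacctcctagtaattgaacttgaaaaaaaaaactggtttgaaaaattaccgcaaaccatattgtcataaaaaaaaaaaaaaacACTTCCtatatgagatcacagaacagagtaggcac

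*Il2rb* encodes the IL-2 receptor beta chain (CD122), which IL-2 and IL-15 share and which carries much of their signal. It stood at 152.1, 151.2, 150.8 and 151.8 FPKM in the presence of DMSO and at 254.6, 255.9, 250.4 and 251.3 FPKM when DADA was added. No other receptor gene was as even within groups, the coefficient of variation being 0.380% with DMSO and 1.04% with DADA. The medians over all genes tested were 4.89% and 4.63%. *Il2rb* stood at rank 382 of the table with DMSO, so most of those genes were lower and the medians are not matched for level. The mean rose from 151 ± 0.575 to 253 ± 2.63 FPKM (SD, n = 4), by 1.67 times, and the log2 fold change was 0.74 (SE 0.0177, limma adjusted p = 3.15e-10). The size of its rise exceeded that of 92.7% of the genes tested.

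*Il2rg*, the common chain itself, moved the other way and by little. It was at 263.6, 267.5, 269.4 and 268.9 FPKM with DMSO and at 239.6, 248.7, 251.3 and 254.5 FPKM with DADA. The DADA libraries were all below the DMSO ones, and the gap between the nearest ones was smaller than the spread of the DADA libraries. The mean went from 267 ± 2.63 to 248 ± 6.40 FPKM (SD, n = 4), and the log2 fold change was -0.11 (SE 0.0227, 95% interval -0.16 to -0.05, limma adjusted p = 0.00222). This was smaller than the change of most genes: 27.3% of genes tested moved less. The log2 fold change was -0.16 with quantile normalization and -0.07 on TPM, and it was called under both. In GENCODE M21 another protein-coding gene, *Gm20489*, overlaps *Il2rg* on the same strand and has no row in the table, so reads of the pair cannot be told apart.

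The same span of *Il2rg*, at chrX:101268256-101268505 on the minus strand of GRCm38.p6, is shown for comparison, as that of the chain common to all 6 receptors. The ETS core was searched only in the form GGAAGT, so other stretches with GGAA, as near the end of this span, are not marked. The span held none of the 4 motifs as searched and so has no capitals:
Il2rg: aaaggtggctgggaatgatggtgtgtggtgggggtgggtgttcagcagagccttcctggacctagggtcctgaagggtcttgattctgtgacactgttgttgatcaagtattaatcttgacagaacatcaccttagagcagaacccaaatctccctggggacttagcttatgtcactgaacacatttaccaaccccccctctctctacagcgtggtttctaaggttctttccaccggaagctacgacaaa

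*Il15ra* encodes the chain that binds IL-15 with high affinity and presents it to IL-2 receptor beta and the common gamma chain on neighbouring cells. The DMSO libraries held 13.07, 12.74, 13.02 and 14.47 FPKM and the DADA libraries 10.68, 10.76, 12.73 and 11.75 FPKM. The groups touched without overlapping, since DADA replicate 3 at 12.73 came next to DMSO replicate 2 at 12.74. The mean went from 13.3 ± 0.779 to 11.5 ± 0.962 FPKM (SD, n = 4), and the log2 fold change was -0.20 (SE 0.0596, 95% interval -0.33 to -0.07, limma adjusted p = 0.0133). It had the widest interval of the 7 genes tested. *Il15ra* and *Il2ra* are neighbours on mouse chromosome 2, with 2 annotated genes between them that were not among the genes tested, and they moved in opposite directions.

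*Il7r*, which encodes the IL-7 receptor alpha chain (CD127), a chain also used by the TSLP receptor, rose in all 4 DADA libraries. It was at 51.8, 51.3, 52.1 and 56.1 FPKM with DMSO and at 76.7, 74.6, 82.9 and 77.5 FPKM with DADA. DMSO replicate 4 stood above the other 3 DMSO libraries and DADA replicate 3 above the other 3 DADA libraries, and the groups remained well apart. The mean rose from 52.8 ± 2.22 to 77.9 ± 3.51 FPKM (SD, n = 4), by 1.48 times, and the log2 fold change was 0.55 (SE 0.0386, limma adjusted p = 7.76e-07). The neighbouring gene *Capsl* on one side also rose, from 2.63 to 4.53 FPKM (log2 fold change 0.61, limma adjusted p = 9.45e-04), while *Spef2* on the other side was at 3.00 and 3.30 FPKM and was not called (adjusted p = 0.177).

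The 250 bases before the start of *Il7r*, at chr15:9529877-9530126 on the minus strand of GRCm38.p6, are shown because they were the only span among the 7 genes matched to hold a match to the STAT element TTCNNNGAA, the class of site bound by the factors downstream of these receptors. The capitals mark that match, starting 142 bases before the start, and a match to the ETS core GGAAGT on the other strand, starting 49 bases before it:
Il7r: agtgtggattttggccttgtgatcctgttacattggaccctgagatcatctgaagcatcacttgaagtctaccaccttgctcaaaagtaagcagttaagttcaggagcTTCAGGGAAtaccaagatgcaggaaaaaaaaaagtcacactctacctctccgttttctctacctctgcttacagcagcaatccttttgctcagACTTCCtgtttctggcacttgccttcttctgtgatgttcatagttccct

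The other spans held few matches. RefSeq promoter sequences were found for 7 of the 8 genes, *Il2rb* being without one. TTCNNNGAA, the FOXO element GTAAACA, the AP-1 element TGANTCA and GGAAGT were searched on both strands. *Il15ra*, with 2 annotated starts, had an AP-1 match 30 bases before one of them, and *Il21r* had a FOXO match 38 bases before its start. *Il2rg*, *Il4ra* and *Il9r* had none of the 4 motifs in these forms. GGAA followed by other letters was not searched and occurs in some of the spans, those of *Il2rg* and *Il4ra* among them. Of 32851 promoter windows of the same length over the mouse genome, 7.02% held the STAT element, 3.17% the FOXO element, 6.75% the AP-1 element and 19.7% the ETS core. These are matches of letters within short spans and say nothing of whether a factor was bound.

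*Il4ra* encodes the alpha chain of the IL-4 receptor, which pairs with the common gamma chain for IL-4 and with IL-13 receptor alpha 1 for IL-4 and IL-13. It was at 49.5, 49.4, 47.2 and 47.2 FPKM with DMSO and at 62.4, 59.6, 61.6 and 60.0 FPKM with DADA, so that all DADA libraries were higher. The mean rose from 48.3 ± 1.28 to 60.9 ± 1.34 FPKM (SD, n = 4), and the log2 fold change was 0.33 (SE 0.0270, limma adjusted p = 2.61e-06). An annotated antisense gene, *Gm44876*, overlaps *Il4ra*, and without strand information its reads cannot be told apart from those of *Il4ra*.

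*Il21r*, the gene next to *Il4ra* on chromosome 7, encodes the cytokine-specific chain of the IL-21 receptor and changed little. It was at 92.5, 88.7, 90.6 and 90.2 FPKM with DMSO and at 98.8, 98.2, 94.2 and 95.1 FPKM with DADA. The highest DMSO library, at 92.5, was close to the lowest DADA library, at 94.2. The mean rose from 90.5 ± 1.54 to 96.6 ± 2.26 FPKM (SD, n = 4), and the log2 fold change was 0.09 (SE 0.0240, 95% interval 0.04 to 0.15, limma adjusted p = 0.00667). Of the genes tested, 24.0% moved less. With quantile normalization the log2 fold change was 0.15.

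*Il9r*, the IL-9 receptor chain, was low and did not enter the test with the others. It was at 0.446, 0.997, 1.11 and 0.704 FPKM with DMSO and at 0.242, 0.177, 0.138 and 0.140 FPKM with DADA. All DADA libraries were below all DMSO libraries, and the DMSO libraries varied widely, with a coefficient of variation of 36.8%. At the estimated depth and for the longest annotated transcript these values correspond to about 29.0 to 72.3 fragments with DMSO and 9.04 to 19.0 with DADA. The mean went from 0.814 ± 0.299 to 0.174 ± 0.0488 FPKM (SD, n = 4), a ratio of 4.67 in favour of DMSO (exact permutation test, two-sided p = 0.0286). In the limma fit with no filter the log2 fold change was -0.61 (SE 0.111, adjusted p = 0.00193), a scale on which the change of so low a gene is understated. With a pseudocount of 0.1 it was -1.69.

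**Figure D2:**
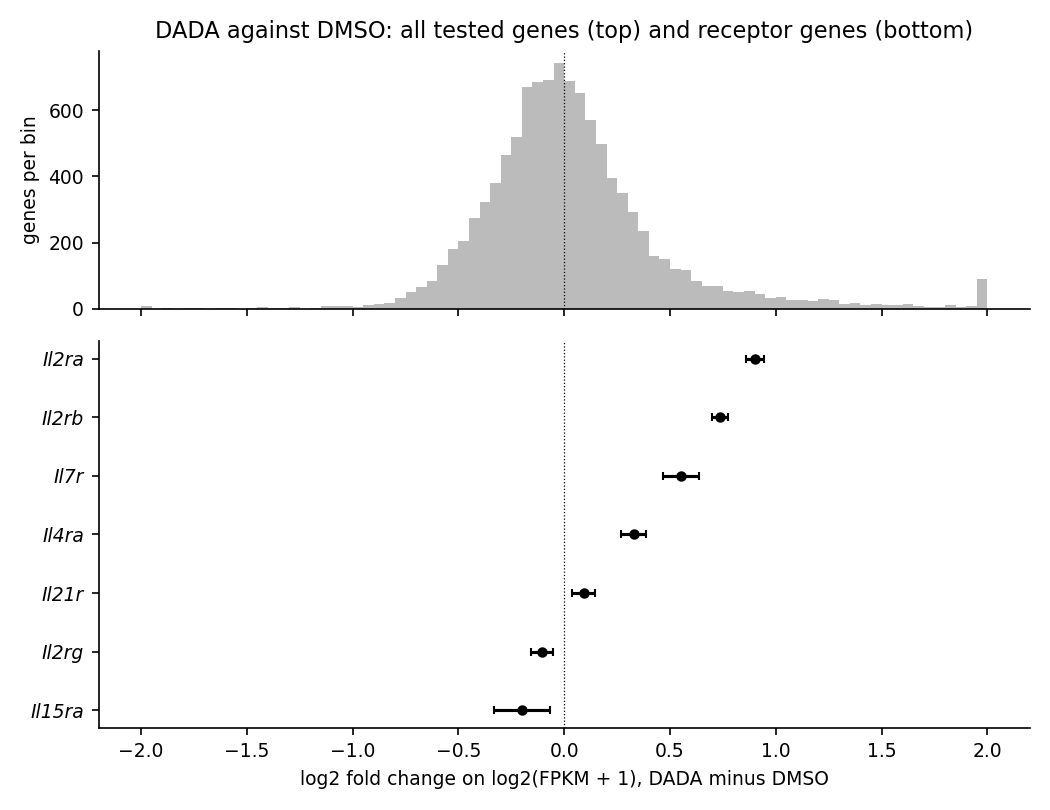
The upper panel is a histogram of the log2 fold changes (DADA minus DMSO, on log2(FPKM + 1)) of the 10666 genes tested, with values past the axis range drawn in the end bins. The lower panel gives the 7 receptor genes tested as points with 95% intervals, from *Il15ra* at -0.20 to *Il2ra* at 0.90, none of which crosses 0.

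FPKM is scaled to transcript length but not to other differences between genes, such as shared reads, so levels of the receptor genes are set side by side as approximate. With DMSO the order of the mean levels was *Il2ra*, *Il2rg*, *Il2rb*, *Il21r*, *Il7r*, *Il4ra*, *Il15ra* and *Il9r*, and the 4 values of each gene lay apart from those of the next. *Il2ra* was only 1.10 times *Il2rg*, and *Il7r* 1.09 times *Il4ra*. Values that lie apart reflect the spread between libraries only, so differences as small as these do not settle which gene was higher. With DADA, *Il2rb* and *Il2rg* came together: their means were 253 and 248 FPKM and their values overlapped, so their order was not resolved. All other neighbours in the order again lay apart, and *Il2ra* was then 2.17 times the next gene.

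Because the common chain fell slightly while most of its partners rose, the ratios within a library changed. The ratio of *Il2ra* to *Il2rg* was from 1.09 to 1.10 in the DMSO libraries and from 2.17 to 2.26 in the DADA libraries. The ratio of *Il2rb* to *Il2rg* went from 0.567 ± 0.00733 to 1.02 ± 0.0342 (SD, n = 4). Thus, in FPKM, the transcript of the IL-2 receptor beta chain was well below that of the common chain with DMSO and near it with DADA. *Il7r* to *Il2rg* went from 0.198 ± 0.00765 to 0.314 ± 0.0138, *Il4ra* to *Il2rg* from 0.181 ± 0.00635 to 0.245 ± 0.0109, and *Il21r* to *Il2rg* from 0.339 ± 0.00839 to 0.389 ± 0.0183 (SD, n = 4). None of these ratios overlapped between the groups, and each rests on the same values as the single genes. They are ratios of transcripts, and surface protein was not measured here.

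**Figure D3:**
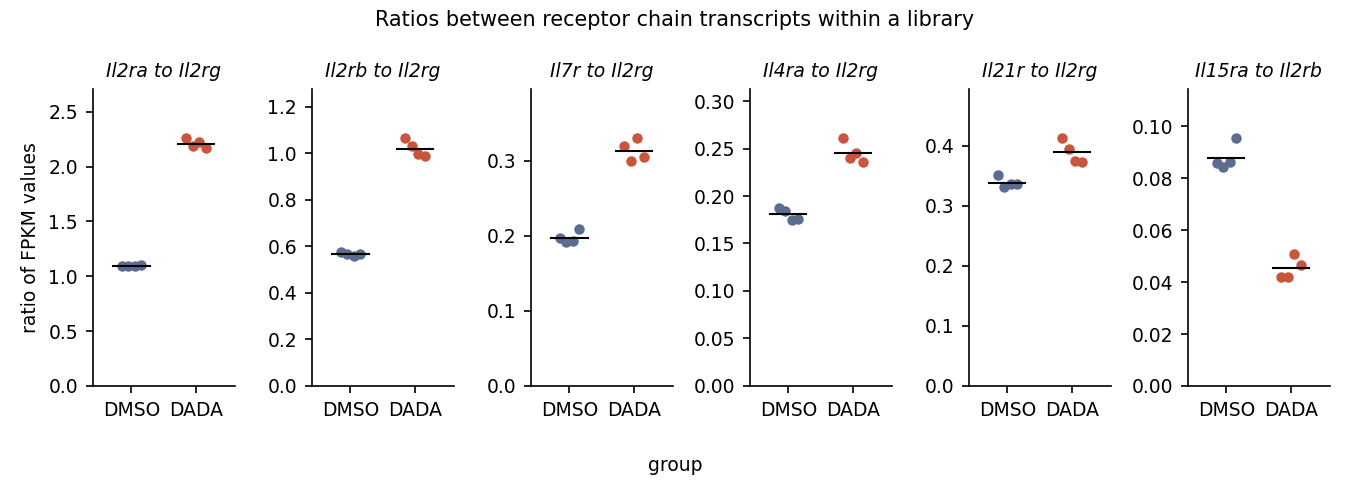
Ratios of FPKM values within a library for 6 pairs of receptor chains, each panel with its own axis from 0, the points being the 4 DMSO (blue) and 4 DADA (red) libraries and the lines the group means. *Il2ra* to *Il2rg* moved from a mean of 1.10 to 2.21 and *Il15ra* to *Il2rb* from 0.0880 to 0.0454, and in every panel the groups lie apart.

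The 2 alpha chains of the receptors that contain the IL-2 receptor beta chain moved apart relative to it. *Il2ra* to *Il2rb* rose from 1.93 ± 0.0261 to 2.17 ± 0.0518, whereas *Il15ra* to *Il2rb* fell from 0.0880 ± 0.00501 to 0.0454 ± 0.00426 (SD, n = 4). The FPKM values of the 7 chains other than *Il2rg* summed to 650 ± 3.99 with DMSO and to 1049 ± 7.84 with DADA, or 2.43 and 4.22 times *Il2rg*. Within that sum the share of *Il2ra* went from 45.1% to 52.3%, that of *Il21r* from 13.9% to 9.21% and that of *Il4ra* from 7.43% to 5.81%. The share of *Il7r* was 8.12% with DMSO and 7.43% with DADA, although the gene itself rose. The ratio of *Il7r* to *Il2ra* was from 0.175 to 0.190 with DMSO and from 0.137 to 0.148 with DADA.

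The genes of the cytokines themselves were low or at 0. *Il7* and *Il9* were at 0 in all 8 libraries, and *Il15* did not pass 0.0256 FPKM in any. *Il4* reached at most 0.619 FPKM with DMSO and 0.387 with DADA, and its groups overlapped. *Il2* was between 0.480 and 0.623 FPKM with DMSO and in the DADA libraries it stood between 1.23 and 2.03 (log2 fold change 0.74, SE 0.101, limma adjusted p = 1.05e-04). It passed the filter through the 4 DADA libraries alone, so it could only be tested because it was higher there. *Il21* was at 0.0226 ± 0.0322 with DMSO and 0.655 ± 0.148 FPKM with DADA (SD, n = 4) and did not pass the filter.

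Among chains that pair with members of this family in other receptors, *Crlf2*, which forms the TSLP receptor with *Il7r*, was at 17.8 ± 1.21 FPKM with DMSO and rose to 21.6 ± 1.93 with DADA (SD, n = 4; log2 fold change 0.27, limma adjusted p = 0.00512). Its groups overlapped, since DADA replicate 3 was at 18.7 FPKM and the highest DMSO library at 19.5. The partners of *Il4ra* for IL-13 were close to absent: *Il13ra1* did not pass 0.141 FPKM, and *Il13ra2* was at 0 in all libraries.

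Of the 12 genes that carry or restrain the signal inside the cell, all were tested, 7 rose, 2 fell and 3 were not called, where 66.2% of all genes tested were called, with a median log2 fold change of 0.17 against -0.02 over all genes. The kinases attached to the receptors moved in opposite directions. *Jak3*, the kinase of the common gamma chain, rose from 39.9 ± 2.16 to 74.1 ± 1.84 FPKM (SD, n = 4; log2 fold change 0.88, SE 0.0384). *Jak1*, the kinase of the signalling chains that pair with the common gamma chain, fell from 64.5 ± 0.996 to 57.6 ± 2.72 FPKM (log2 fold change -0.16, SE 0.0335, limma adjusted p = 0.00178). The ratio of *Jak3* to *Jak1* was from 0.569 to 0.667 in the DMSO libraries and from 1.19 to 1.38 in the DADA libraries, so their order reversed in all 4.

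The STAT genes of the pathway differed in size. *Stat3*, used by IL-21, rose from 87.4 ± 1.37 to 191 ± 4.85 FPKM (SD, n = 4; log2 fold change 1.12, SE 0.0240), the largest change of the signalling genes. *Stat5a* rose by 0.19 and *Stat5b* by 0.30 on the log2 scale. *Stat6*, used by IL-4, was at 49.2 ± 1.51 and 48.5 ± 1.23 FPKM and was not called (log2 fold change -0.02, 95% interval -0.09 to 0.05). *Irs2*, an adaptor of the IL-4 receptor, rose (log2 fold change 0.37), as did the phosphatase genes *Ptpn2* (0.33) and *Ptpn6* (0.14), whose products restrain JAK signalling, while the phosphatase gene *Ptpn11* fell by 0.13 on the log2 scale. The adaptor genes *Shc1* and *Gab2* were not called, with log2 fold changes of 0.0045 and -0.12.

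Of 16 genes known to respond to IL-2 or to STAT5, 14 rose, 1 fell and 1 was not called, beside 30.9% higher and 35.3% lower over all genes tested, with a median log2 fold change of 0.43 (all genes -0.02). The largest rises were in *Prf1* and *Gzmb*, which encode the killing proteins perforin and granzyme B, and in *Socs3*, a feedback inhibitor of cytokine receptors, at log2 fold changes of 2.66, 1.21 and 1.22. *Pim2* (0.84), *Osm* (0.88) and *Lif* (0.73) had log2 fold changes near those of *Il2ra* and *Il2rb*. The rest of the genes called higher in this list rose less, by 0.18 to 0.50. *Bcl2l1*, which encodes the survival protein BCL-XL, was the one gene that fell, from 82.0 ± 1.19 to 53.4 ± 1.64 FPKM (SD, n = 4; log2 fold change -0.61, SE 0.0265). *Cish*, the classical STAT5 feedback gene, was at 89.0 ± 1.68 and 92.0 ± 1.27 FPKM and was not called (log2 fold change 0.05, 95% interval -0.0026 to 0.0958, limma adjusted p = 0.0862). It lay near the threshold: on TPM, with quantile normalization and without DMSO replicate 1 it was called, with 15 of the 16 higher. Many of the genes in this list also respond to the T cell receptor or to other cytokines.

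Of 8 transcription factor genes whose products are known to act at *Il7r*, *Il2ra* or *Il2rb*, 6 rose, 1 fell and 1 was not called (30.9% of all genes tested were higher and 35.3% lower), with a median log2 fold change of 0.50 against -0.02 over all genes. *Foxo1*, an activator of *Il7r*, rose from 8.19 ± 0.168 to 13.1 ± 0.352 FPKM (SD, n = 4; log2 fold change 0.62). *Gfi1*, a repressor of *Il7r* in CD8+ T cells, rose from 19.7 ± 1.12 to 49.4 ± 1.95 FPKM (log2 fold change 1.29), the most of the 8. The ETS factor gene *Gabpa*, also tied to *Il7r*, rose by 0.15. *Tbx21* and *Eomes*, T-box factor genes tied to *Il2rb*, moved in opposite directions, with log2 fold changes of 0.64 and -0.36. *Runx3* (1.07) and *Nfatc1* (0.37) rose, and *Rel*, an activator of *Il2ra*, was not called (-0.03, 95% interval -0.09 to 0.04, and 0.0057 on TPM).

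All 6 genes commonly listed with *Il7r* as genes dependent on FOXO1 rose, as did 30.9% of all genes tested, with a median log2 fold change of 0.76 against -0.02 over all genes. Among them were *Klf2* (1.13), *Ccr7* (0.77), *Tcf7* (0.75), *S1pr1* (0.73) and *Bach2* (0.33), which encode homing receptors and factors typical of quiescent and memory T cells. *Il7r* at 0.55 lay within their range. *Klf2* was low, 0.682 to 1.03 FPKM with DMSO against 2.51 to 3.72 with DADA, and only 1 DMSO library reached 1 FPKM, so that it passed the filter through the DADA libraries, where it was high.

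Class I cytokine receptor chains outside the family gave a mixed picture. Of 16, 7 were tested, of which 3 rose, 1 fell and 3 were not called, beside 66.2% called over all genes tested, and their median log2 fold change was 0.11. *Il12rb2*, the inducible chain of the IL-12 receptor, rose from 189 ± 5.62 to 263 ± 11.5 FPKM (SD, n = 4; log2 fold change 0.48), and *Il12rb1* from 41.9 ± 0.736 to 45.4 ± 0.995 FPKM (0.11). *Epor*, the erythropoietin receptor gene, was between 0.557 and 1.00 FPKM with DMSO and between 4.15 and 5.09 with DADA (1.67), and since only 2 DMSO libraries reached 1 FPKM, it passed the filter through the DADA libraries, where it was high. *Il27ra* fell from 30.0 ± 1.11 to 23.3 ± 1.09 FPKM (-0.35). *Csf2rb*, the common beta chain of the IL-3, IL-5 and GM-CSF receptors, did not pass 0.438 FPKM in any library, far below *Il2rg*. Its mean was 0.0276 FPKM with DMSO and 0.374 with DADA, its groups apart and below the filter.

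**Figure D4:**
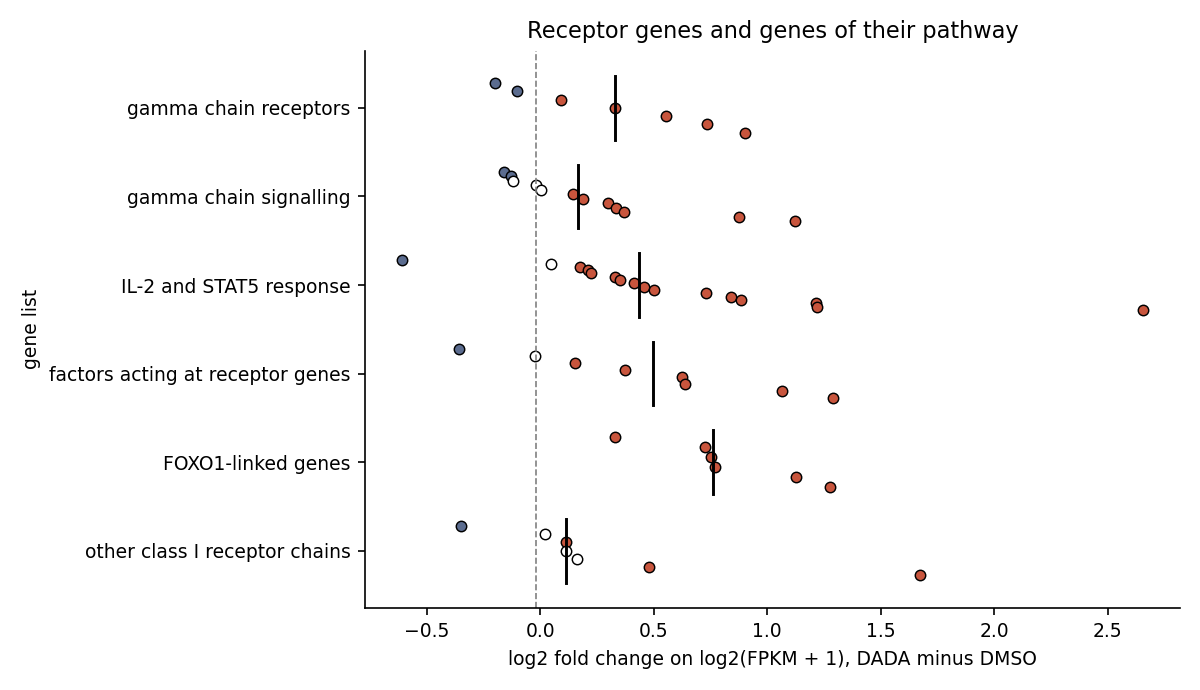
Log2 fold changes (DADA minus DMSO, on log2(FPKM + 1)) of the receptor genes and of the tested genes of 5 lists of their pathway, one point a gene, filled red where called higher, blue where called lower and white where not called, with a vertical bar at each list's median and a dashed line at the median of all genes tested (-0.02). The medians run from 0.11 for other class I receptor chains to 0.76 for the genes linked to FOXO1, with 0.33 for the receptor genes.

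The genes closest to each receptor were found by Pearson correlation of log2(FPKM + 1) over the 8 libraries. They were sought among the 8181 genes that averaged 5 FPKM or more. As the libraries form 2 groups, such a value includes, and may mostly be, the difference between the groups. It does not show that genes vary together within a group. For *Il2ra* they were *Dgat1* and *Pgm1* (both r = 1.00), and for *Il2rb* *Prf1* and *Oas3* (both r = 1.00), with 1171 and 1157 genes respectively at r of at least 0.95. *Il7r* was closest to *Dennd1b* and *Apaf1* (0.998 and 0.997), and *Il4ra* to *Itpkb* (0.998) and *Pim1* (0.996). *Il2rg* was closest to *Cmc1* (0.995) and *Hprt1* (0.987), with 99 genes at 0.95 or above. *Il21r* was closest to *Eef2* (0.991) and *Pias2* (0.979), with 26 such genes, and *Il15ra* to *Larp4b* (0.989) and *Xpo7* (0.979), with 12.

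Neighbouring genes gave no common direction. Among the tested genes nearest to the 8 receptors, *Rbm17*, before *Il2ra*, fell from 106 to 86.7 FPKM (log2 fold change -0.29), and *Kctd17*, before *Il2rb*, rose from 8.74 to 12.9 FPKM (0.51) while *C1qtnf6* after it was not called (-0.07). *Gm614* and *Med12*, on either side of *Il2rg*, both fell, with log2 fold changes of -0.27 and -0.08. *Fbh1*, after *Il15ra*, rose by 0.16, and *Nsmce1*, before *Il4ra*, fell by 0.20 on the log2 scale. *Gtf3c1*, after *Il21r*, was not called (0.04). *Nsg2* before *Il9r* was not called (-0.02), and *Snrnp25* after it rose by 0.37.

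Levels of genes typical of other cells that could be present were also compared. The summed FPKM of 5 NK cell genes was 14.0 to 16.6 with DMSO and 21.1 to 23.0 with DADA, of which *Eomes* and *Gzma*, both also made by CD8+ T cells, were the only ones to reach 1 FPKM. The NK cell genes *Ncr1* and *Klra8* did not pass 0.136 and 0.0962 FPKM. *Klrb1c* was at 0.0180 ± 0.0231 with DMSO and 0.185 ± 0.0497 FPKM with DADA (SD, n = 4), its groups apart and below the filter. The sum of 6 myeloid genes was 3.51 to 3.99 and 5.15 to 5.72 FPKM, nearly all of it *Cd68*, and that of 5 mast cell and basophil genes was 0.527 to 0.652 and 3.75 to 4.34 FPKM, nearly all of it *Kit*. For 5 genes of CD4+ and regulatory T cells the sum was 18.9 to 20.0 FPKM with DMSO and 18.8 to 19.3 with DADA, with only *Zbtb7b* and *Ikzf2* at 1 FPKM or more, and for 5 B cell genes it was 2.59 to 3.54 and 2.36 to 3.09 FPKM. The part of these levels in the receptor values was not tested.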

How the data were processed

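RNA-seq libraries were made from 8 cultures of mouse CD8+ T cells, 4 with DMSO and 4 with DADA. The values are FPKM, computed and deposited by the authors for each library. Per the labels their processing used CASAVA 1.8.2, FastQC 0.11.9, HISAT2 2.0.5, StringTie 1.3.3, Picard 1.41 and SAMtools 0.1.18. The labels name the builds GRCm39 and GRCh38 without saying what each was used for. Read counts were not analysed here, and the low FPKM values did not give back whole reads, so no count test was run. At the estimated depth 38.7% to 44.7% of them lay near whole multiples. Evenly spread values would give 20%, but the depth was chosen on these same values, so the 20% is not their chance level. FPKM is relative to each library's total, and the summed FPKM was 450473 to 456939 with DMSO and 438299 to 449480 with DADA.

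Genes with at least 1 FPKM in at least 4 of 8 libraries were tested (10666) with limma 3.58.1 in R 4.3.3 on log2(FPKM + 1), with eBayes fitted to the mean-variance trend. p-values were adjusted over all genes tested by Benjamini-Hochberg, at a threshold of 0.05. Fold changes on this scale understate changes of low genes. Single genes were also compared by an exact two-sided permutation test over all 70 assignments. p-values measure the spread between these libraries. The fit was tested on simulated data. The pathway, factor and marker lists were written from general knowledge, and members and lists were chosen with earlier results of these data known. Named were all genes of lists of up to 8 genes, and of longer lists the 3 called genes that rose and the 3 that fell most. A few list genes that this rule takes are not reported here by name. Beside these, *Stat5a*, *Stat5b*, *Stat6*, *Shc1*, *Gab2*, *Ptpn2*, *Ptpn6*, *Cish*, *Pim2*, *Osm*, *Lif* and *Csf2rb* were named after their values were seen, as were the ratios to *Il2ra*, the shares and the *Jak3* to *Jak1* ratio. The nearest tested gene on each side and the 2 most correlated genes of each member were named as well. Alternatives were a pseudocount of 0.1, no filter, a mean of at least 5 FPKM, TPM, median-ratio and quantile scaling, no trend, a replicate block and each library left out.

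Gene neighbours come from the RefSeq gene order, overlaps from GENCODE M21 and promoter sequences from RefSeq (GRCm38.p6). The build of these references may not be that of the files, so coordinates are given for the promoters only.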

Additional observations from a re-analysis of the deposited data

Results flagged for a closer look

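Among 106 sets of 4 libraries examined (the receptor genes, the named genes of the lists and the ratios, each in each group), 4 held 1 library far from the other 3, where chance gives about 1 in 20, or 5.30. The 4 were found by dividing the gap to the nearest library by the range of the group. DMSO replicate 4 had 56.1 FPKM of *Il7r*, against 51.3 to 52.1 in the other DMSO libraries (gap over range 0.849), and *Il7r* as a share of the 7 chains that pair with *Il2rg* was 8.55% there against 7.93% to 8.01% (0.860). DADA replicate 3 had 18.7 FPKM of *Crlf2*, the partner of *Il7r* in the TSLP receptor, against 22.3 to 22.8 in the other DADA libraries (0.888). DADA replicate 1 had 46.9 FPKM of *Il12rb1* against 44.8 to 45.0 (0.896). Without these libraries, each for its own gene, the log2 fold change was 0.58 for *Il7r*, 0.33 for *Crlf2* and 0.10 for *Il12rb1*, against 0.55, 0.27 and 0.11 with all 8 libraries (limma on log2(FPKM + 1)).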

How the results depend on the processing

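The 7 receptor genes tested kept their direction and their call under each of 16 alternatives, and *Il9r*, fitted with no filter, under each of 13. The largest adjusted p-values (limma) were 0.0390 for *Il15ra* without DADA replicate 2, 0.0230 for *Il21r* without DADA replicate 1 and 0.0212 for *Il2rg* on TPM. With each library left out in turn, *Il15ra* ranged from -0.25 to -0.16, *Il21r* from 0.08 to 0.10, *Il2rg* from -0.12 to -0.09 and *Il9r* from -0.72 to -0.54. The counts of receptor genes were 5 higher and 2 lower under every alternative except no filter, where *Il9r* made it 3 lower. TPM, median-ratio scaling and quantile normalization moved the median log2 fold change of all genes by at most 0.03.

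With no filter the genes called higher were 2 cytokines instead of 1, 2 partner chains instead of 1 and 5 other class I receptor chains instead of 3, and 2 of the latter were lower instead of 1. With a mean of at least 5 FPKM 0 cytokines were tested, and without any 1 of the DADA libraries *Il2* no longer passed the filter, so that the count of cytokines called higher was 0 to 1 with a library left out. Of 456 alternative values of the 29 genes that the naming rule took from the lists, 455 kept their direction and side of the threshold. *Rel*, not called, reversed to 0.0057 on TPM. Genes named after their values were seen are not among the 29. On TPM, with quantile normalization and without DMSO replicate 1, 15 IL-2 and STAT5 genes were called higher instead of 14, *Cish* being added. With quantile normalization, with no trend and without DMSO replicate 1, 3 signalling genes were called lower instead of 2. Other class I chains called higher were 4 instead of 3 on TPM, with no trend or a block, without DMSO or DADA replicate 2. On TPM the same number of neighbours in the order of levels lay apart.

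The groups share replicate numbers, but same-numbered libraries did not deviate together (r = 0.0953, -0.120, -0.0877 and 0.0751). No DMSO library was closest to its own number, and of the DADA libraries only replicate 1 was. With a replicate block the limma adjusted p of *Il2ra* was 2.11e-07 at its log2 fold change of 0.90, and 3251 genes were higher and 3744 lower. The block changed no call of a receptor gene.

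*Il9r* rests on few fragments. The depth itself is an estimate, and no counts were at hand to give counting error.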
